A study of Mus musculus with 12 samples.

Results

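The nuclear genes that encode subunits of the oxidative phosphorylation complexes were followed in C57MG cells, an established line of mouse mammary epithelial cells. Members were the genes whose name in the scanner files begins with Nduf, Uqcr, Atp5 or Cox4 to Cox8, each represented by its brightest probe, which gave 78 of 27962 distinct gene names (107 of 41174 probes). Cells seeded the day before were moved from growth medium with serum and insulin to plain DMEM and treated for 24 h with BSA as the carrier control, with 100 ng/ml recombinant human Rspo2, with 100 ng/ml recombinant mouse Wnt3a, or with both proteins at those doses (Rspo2/Wnt3a). Each treatment group had 3 monolayers, and the RNA of each was hybridized with 1 dye to its own array, 12 arrays in all on 3 slides.

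Oxidative phosphorylation passes electrons from NADH and succinate along complexes I to IV of the inner mitochondrial membrane to oxygen, and complex V, the ATP synthase, uses the proton gradient that this builds to make ATP. Complex I (Nduf genes) oxidizes NADH, complex III (Uqcr genes) passes electrons from ubiquinol to cytochrome c, and complex IV (Cox genes) reduces oxygen. Each complex joins a small catalytic core to many accessory subunits, and in complexes I, III, IV and V part of the core is encoded by mitochondrial DNA, which these gene families do not include.

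By complex, the tested genes comprised 35 of complex I, 7 of complex III, 14 of complex IV and 15 of complex V, together with 4 that share a family name without being subunits (Atp5s, Cox4nb, Cox7a2l and Ndufaf1). In all 75 of the 78 genes were detected, meaning well above background on every array of at least 1 group. Cox4i2, Cox8b and Cox8c, the isoforms of complex IV best known from lung and from muscle or testis, were not. Signals are log2 values with the 75th percentile of each array set to 0, and a change is a difference between group means on that scale.

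The promoters of a few members are shown because nuclear respiratory factor 1 (NRF-1) and ETS factors such as GABP are textbook regulators of this gene set. RefSeq promoter sequences (build GRCm38.p6) were matched for 64 of the 78 genes. In the 250 bases before the start, 11 of the 64 genes (17.2%) held the NRF-1 letters on either strand (GCGCA, then 1 base of any kind, then GCGC), against 4.23% of the 27025 genes of the table. The ETS letters CCGGAAG were held by 12 of the 64 (18.8%), against 7.83% of all genes. Both motifs stood before 2 members, and neither before 43 (67.2%), against 88.7% of all genes. The last 150 bases before the start are given 5′ to 3′ for 4 genes among the largest rises, for Cox6a1, which held both motifs, and for 2 genes of catalytic or core proteins that passed no test. Capitals mark matches to either motif.
Atp5e, chr2:174464102-174464251, strand minus: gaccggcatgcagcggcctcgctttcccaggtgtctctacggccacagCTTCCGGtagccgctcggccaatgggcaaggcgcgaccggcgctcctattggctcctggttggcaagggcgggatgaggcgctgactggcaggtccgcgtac
Ndufs5, chr4:123718187-123718336, strand minus: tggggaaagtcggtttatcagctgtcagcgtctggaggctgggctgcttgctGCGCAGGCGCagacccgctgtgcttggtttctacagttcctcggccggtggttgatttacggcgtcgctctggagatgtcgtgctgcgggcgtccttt
Ndufs6, chr13:73328483-73328632, strand minus: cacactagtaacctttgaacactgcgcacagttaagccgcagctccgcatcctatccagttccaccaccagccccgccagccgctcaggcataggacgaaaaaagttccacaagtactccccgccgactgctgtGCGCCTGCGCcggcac
Ndufb4, chr16:37654369-37654518, strand minus: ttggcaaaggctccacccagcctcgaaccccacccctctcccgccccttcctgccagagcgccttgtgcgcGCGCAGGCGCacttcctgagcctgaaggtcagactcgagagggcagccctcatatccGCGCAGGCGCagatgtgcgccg
Cox6a1, chr5:115348959-115349108, strand minus: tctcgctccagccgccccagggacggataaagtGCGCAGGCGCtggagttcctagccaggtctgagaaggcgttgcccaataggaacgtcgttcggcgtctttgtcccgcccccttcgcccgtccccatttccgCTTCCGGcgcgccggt
Atp5b, chr10:128083157-128083306, strand plus: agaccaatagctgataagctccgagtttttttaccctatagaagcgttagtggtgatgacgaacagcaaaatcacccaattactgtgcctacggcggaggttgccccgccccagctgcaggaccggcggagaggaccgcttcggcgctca
Uqcrc1, chr9:108936498-108936647, strand plus: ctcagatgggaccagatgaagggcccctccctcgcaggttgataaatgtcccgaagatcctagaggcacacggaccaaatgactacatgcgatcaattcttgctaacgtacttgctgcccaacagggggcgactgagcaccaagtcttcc
Ndufs5, Ndufs6, Ndufb4 and Cox6a1 held NRF-1 letters in these stretches, Atp5e and Cox6a1 held ETS letters, and Atp5b and Uqcrc1 held none. These stretches were picked and are no sample of the members: Atp5g1, Ndufv2 and Ndufs4, also among the largest rises, held neither motif in the 250 bases. The median change with Wnt3a was 0.58 over the 11 tested genes with NRF-1 letters and 0.48 over the 52 without them. For the ETS letters the medians were 0.53 over 12 genes and 0.48 over 51. A match describes these letters only, and binding was not measured.

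Against BSA, most of these genes were up-regulated by a small amount with Wnt3a and with Rspo2/Wnt3a, and fewer than that with Rspo2. In the limma fit over all 22751 detected probes, with Benjamini-Hochberg adjustment and a call at an adjusted p under 0.05, Rspo2 raised 33 of the 75 genes and lowered none, where 10.9% of all probes were called higher and 5.92% lower. Wnt3a raised 61 and lowered none, against 18.3% and 13.2% of all probes. With Rspo2/Wnt3a 53 were higher and none lower, against 21.9% and 17.3% of all probes. The median change of the 75 genes was 0.35 with Rspo2 (middle 50% of genes 0.25 to 0.41), 0.48 with Wnt3a (0.36 to 0.57) and 0.38 with Rspo2/Wnt3a (0.27 to 0.47), beside medians of 0.01, -0.00 and 0.04 over all probes. These 3 comparisons share the BSA arrays. The change was above 0 for 72, 73 and 74 genes, and the arrays did not overlap with BSA for 60, 66 and 64 genes, where 43.5%, 45.5% and 54% of all probes did not overlap. With 3 arrays a group an exact permutation test of a single gene cannot go below p = 0.1.

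The size of the shift went with the brightness of the probe over the whole array. Among probes with a mean signal of 8192 to 131072 units, which hold 66 of the 75 genes, the 2268 other probes had median changes of 0.25 with Rspo2, 0.32 with Wnt3a and 0.31 with Rspo2/Wnt3a, and 29.9%, 53.9% and 52.6% of them were called higher. Of the 66 genes in that range, 43.9%, 84.8% and 72.7% were called higher, with medians of 0.36, 0.49 and 0.39. Narrower ranges differed. At 8192 to 16384 units (8 genes, 1215 other probes) 12.5%, 50% and 62.5% of the genes were called higher, against 28.2%, 47.7% and 48.2%. Above 65536 units (9 genes, 288 other probes) the shares were 44.4%, 88.9% and 22.2%, against 32.3%, 77.8% and 64.6%. In the ranges between, the share was larger among the genes in all 3 comparisons. Relative to the median of the other probes in its own range of signal, the middle gene stood 0.09 higher with Rspo2, 0.15 with Wnt3a and 0.07 with Rspo2/Wnt3a, and 55, 59 and 48 of the 75 genes were above that median. The part of brightness in the shift was not tested.

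**Figure D1:**
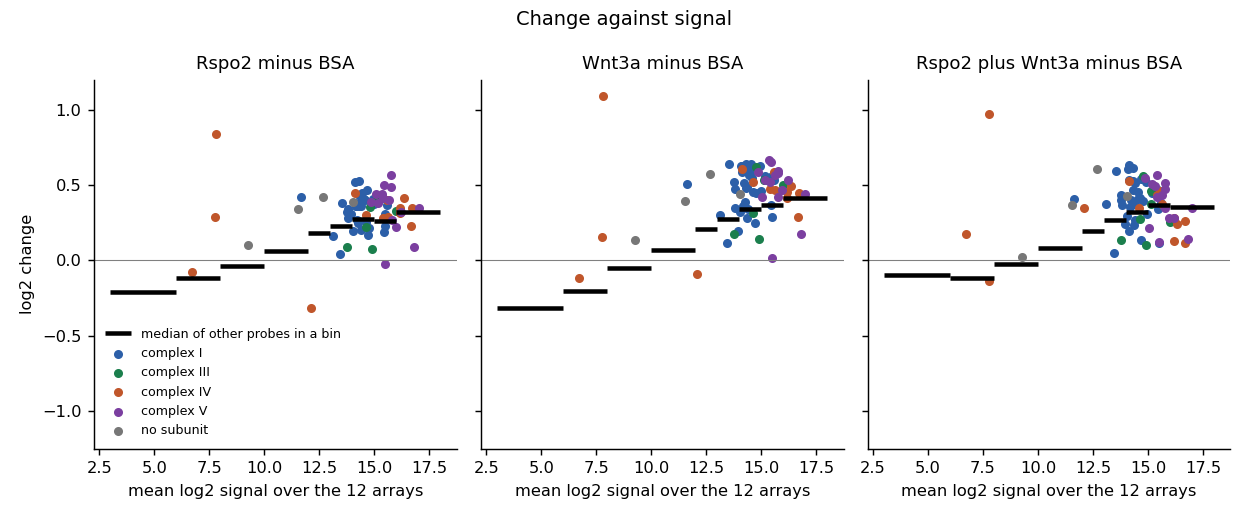
Log2 change against the mean log2 signal over the 12 arrays, in 1 panel per treatment; points are the 75 genes coloured by complex and black bars are the median change of the other probes in each range of signal. The bars climb from below 0 at low signal to 0.32, 0.42 and 0.36 in the brightest range, most genes sit at or above the bar of their range, and Cox6a2 stands far above it at low signal.

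Array by array, the genes moved with the other bright probes. The deviation of a gene from its own mean over the 12 arrays had a median of -0.29, -0.25 and -0.34 on the 3 BSA arrays. It was -0.13, 0.03 and 0.21 on the Rspo2 arrays, 0.09, 0.20 and 0.25 on the Wnt3a arrays, and 0.21, 0.05 and -0.01 on the Rspo2/Wnt3a arrays. The BSA arrays were the lowest 3, Rspo2 replicate 1 was the lowest of the treated arrays, and the treated groups overlapped with each other. The other bright probes ran from -0.26 to -0.19 on the BSA arrays and from -0.05 to 0.17 on the treated arrays. The spread of signal moved too: log2 of the 99th over the 75th percentile was 5.37 to 5.45 on the BSA arrays and 5.54 to 5.85 on the treated arrays. After the other bright probes were subtracted, the genes stood at -0.08 to -0.06 on the BSA arrays, -0.08 to 0.09 with Rspo2, 0.05 to 0.10 with Wnt3a and -0.03 to 0.04 with Rspo2/Wnt3a, so that only the Wnt3a and the Rspo2/Wnt3a arrays were all apart from BSA.

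**Figure D2:**
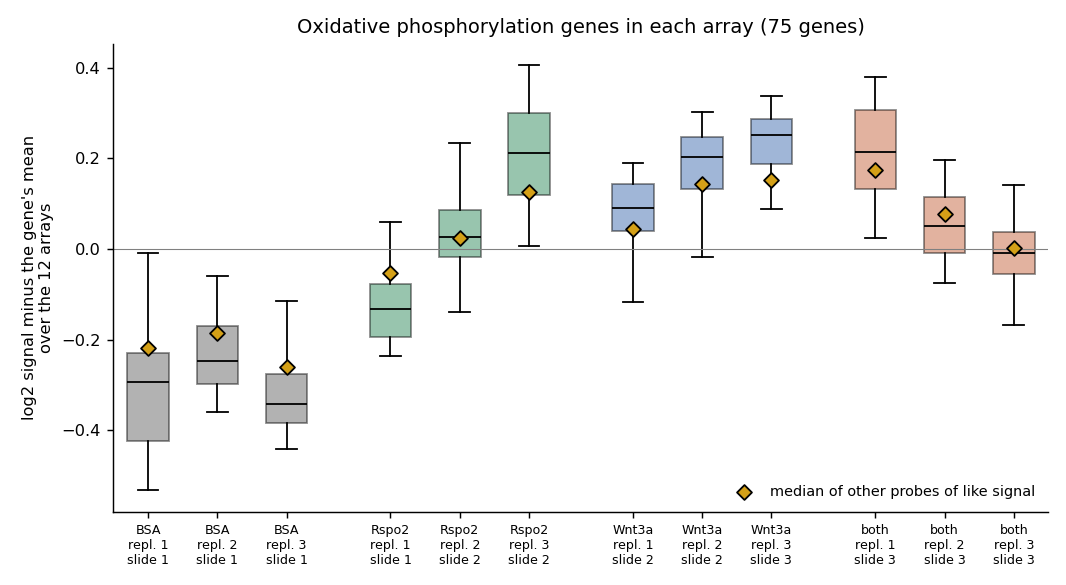
Deviation of the 75 genes from their own means over the 12 arrays, as boxes (middle 50% of genes, whiskers from the lowest to the highest 5%) for each array, coloured by treatment group, with its slide under it ("both" is Rspo2/Wnt3a). Diamonds are the median of the other probes of like signal and move with the boxes; the 3 BSA arrays are lowest.

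The slides held unequal sets of groups, so values within a slide stand beside the pooled ones. Slide 1 carried the 3 BSA arrays and Rspo2 replicate 1, where the median difference between Rspo2 and BSA was 0.16, above 0 for 70 of 75 genes, and 0.17 for the other bright probes. Slide 2 carried 2 Rspo2 and 2 Wnt3a arrays, and there Wnt3a exceeded Rspo2 by a median of 0.02, above 0 for 42 genes. Slide 3 carried Wnt3a replicate 3 and the 3 Rspo2/Wnt3a arrays, and the genes were 0.14 lower with Rspo2/Wnt3a, above 0 for only 3 genes, while the other bright probes were 0.08 lower. No slide held BSA together with Wnt3a. In a fit with slide as a term the medians against BSA were 0.16, 0.17 and 0.05. No gene was called in any of the 3 comparisons, where 0.431%, 0.796% and 2.51% of all probes were called. In that fit 70, 70 and 44 of the 75 genes were above 0, and with Rspo2/Wnt3a the medians of complexes III and IV were -0.03 and -0.04. Treatment and slide are thus only partly separable for these genes, and the part of the slide was not tested beyond these values.

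The number of calls with Rspo2 rested on single arrays. Without BSA replicate 1, BSA replicate 3 or Rspo2 replicate 3 no gene was called, where 2.61%, 3.54% and 2.05% of all probes were called. Without BSA replicate 2 or Rspo2 replicate 2 there were 2 and 3, beside 4.99% and 6.21% of all probes. Without Rspo2/Wnt3a replicate 2 there were 11, beside 9.92%. Without Rspo2 replicate 1, the array on the BSA slide, there were 49. The count with Wnt3a stayed between 47 and 62. That with Rspo2/Wnt3a fell to 34 without BSA replicate 3 and to 29 without Rspo2/Wnt3a replicate 1, beside 31.4% and 29.9% of all probes. With slide as a random block 8 genes were called with Rspo2 and 33 with Rspo2/Wnt3a, where 9.90% and 29.1% of all probes were called.

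Complex I, the entry point for electrons from NADH, had 17, 29 and 28 of its 35 tested genes up-regulated with Rspo2, Wnt3a and Rspo2/Wnt3a. Beside this, and beside the counts of the other complexes, 29.9%, 53.9% and 52.6% of the other bright probes were called higher. Relative to the other probes in its range of signal, the middle gene of complex I stood 0.09, 0.17 and 0.09 higher. The 7 core genes had median changes of 0.31, 0.35 and 0.29, and the 28 accessory genes 0.37, 0.52 and 0.41. Ndufs1, which encodes the largest core subunit, carrier of iron-sulfur clusters, was called in none of the 3 comparisons. Its signal was 3.60, 3.52 and 3.46 on the BSA arrays, 3.47, 3.60 and 3.64 with Rspo2, 3.66, 3.77 and 3.50 with Wnt3a, and 3.54, 3.57 and 3.61 with Rspo2/Wnt3a. All 4 groups overlapped, and the changes of 0.04, 0.12 and 0.05 (SE 0.09) had adjusted p-values of 0.765, 0.324 and 0.688 in limma.

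Ndufv1, the core subunit that binds NADH and FMN, was 4.0, 4.14 and 4.02 with BSA, 4.32, 4.42 and 4.49 with Rspo2, 4.34, 4.52 and 4.38 with Wnt3a, and 4.37, 4.20 and 4.18 with Rspo2/Wnt3a. It rose by 0.36 (SE 0.09) with either protein alone (limma adjusted p = 0.0245 and 0.00965), and its change of 0.20 with both had an adjusted p of 0.0915. Its neighbour in the complex, the core subunit Ndufv2, rose by 0.52, 0.59 and 0.64 (SE 0.13, limma adjusted p = 0.0254, 0.00631 and 0.0028). Ndufv2 read 3.72 to 3.92 on the BSA arrays and 4.24 to 4.69 on the 9 treated arrays, without overlap.

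Ndufs5, an accessory subunit of complex I, read 4.33, 4.32 and 4.25 with BSA, 4.45, 4.86 and 4.83 with Rspo2, 4.88, 5.01 and 4.94 with Wnt3a, and 4.84, 4.77 and 4.65 with Rspo2/Wnt3a. All treated arrays exceeded BSA, and the rise with Wnt3a was 0.64 (SE 0.11, limma adjusted p = 0.00217). Ndufs4, a late-assembled subunit whose loss in humans and mice causes a Leigh-like disease, read 4.06, 4.09 and 4.0 with BSA, 4.25, 4.38 and 4.60 with Rspo2, 4.59, 4.71 and 4.67 with Wnt3a, and 4.77, 4.68 and 4.56 with Rspo2/Wnt3a. Ndufs4 rose by 0.36, 0.61 and 0.62 (SE 0.10, limma adjusted p = 0.0327, 0.00166 and 0.000698). Ndufs6 rose by 0.53 with Rspo2 and 0.64 with Wnt3a (SE 0.15), and Ndufb4 by 0.61 with Rspo2/Wnt3a (SE 0.11, limma adjusted p = 0.00138). Ndufs6 read 3.90 to 4.15 on the BSA arrays and 4.30 to 4.81 on the treated arrays, and Ndufb4 3.79 to 3.86 against 3.99 to 4.54, both without overlap. Ndufb5, a membrane-arm subunit, rose by 0.42, 0.51 and 0.41 (SE 0.09). Ndufa2, Ndufa10 and Ndufb2 were the accessory genes called in none of the 3 comparisons.

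**Figure D3:**
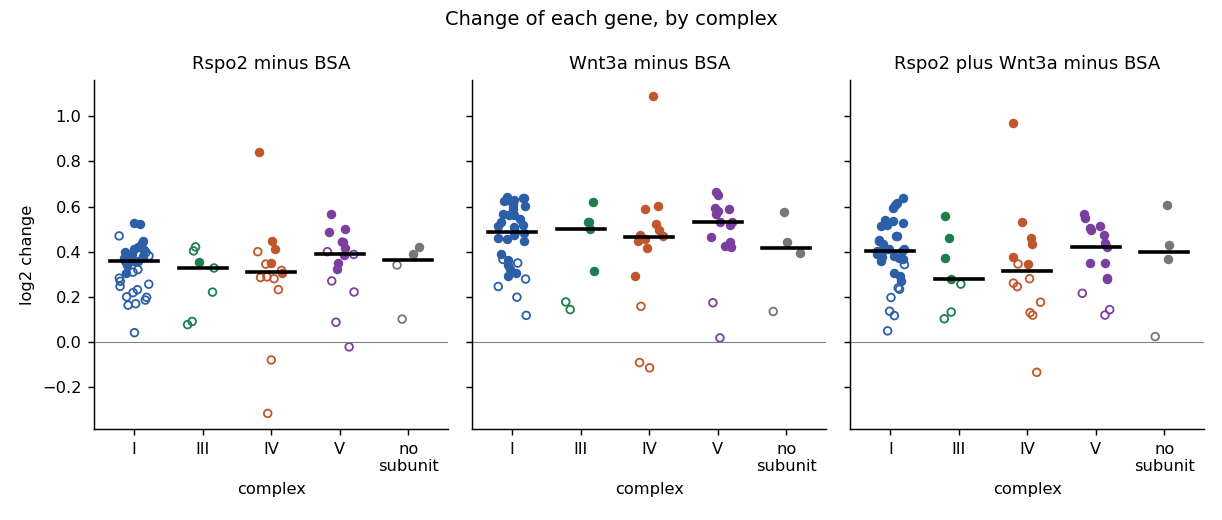
Log2 change of each tested gene against BSA, by complex, in 1 panel per treatment; filled points were called in limma at an adjusted p under 0.05, open points were not, and black lines are the medians. The medians lie between 0.28 and 0.53, the filled points are all above 0, and Cox6a2 of complex IV is the highest point in each panel.

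Complex III had 1, 5 and 4 of its 7 tested genes up-regulated, where 29.9%, 53.9% and 52.6% of the other bright probes were called higher. Relative to its range of signal the middle gene stood at 0.004, 0.08 and -0.04. Uqcrc1, a large core protein of the complex, read 4.91 to 5.01 with BSA and 4.87 to 5.18 on the treated arrays, with changes of 0.08, 0.14 and 0.10 (SE 0.09, limma adjusted p = 0.585, 0.261 and 0.413). A second probe of Uqcrc1 gave 0.25, 0.20 and 0.19, not called. Uqcrfs1, the Rieske iron-sulfur protein that passes electrons on towards cytochrome c1, had changes of 0.09, 0.18 and 0.13 (SE 0.08) and was not called either. The small subunit Uqcrb, by contrast, rose by 0.36, 0.62 and 0.56 (SE 0.10, limma adjusted p = 0.036, 0.00172 and 0.00142). Uqcrb read 4.49 to 4.56 with BSA and 4.69 to 5.21 on the treated arrays, without overlap. The small subunit Uqcr10 is on the array under an older name and so was no member by the rule; its changes were 0.50, 0.86 and 0.98 (SE 0.12, limma adjusted p = 0.0237, 0.000978 and 0.000143), above those of all 7 members of complex III.

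Complex IV had 5, 11 and 6 of its 14 tested genes up-regulated, with medians of 0.31, 0.46 and 0.31. Of the other bright probes 29.9%, 53.9% and 52.6% were called higher. Relative to its range of signal the middle gene stood at 0.03, 0.10 and 0.02. Cox4i1, the ubiquitous form of subunit 4, read between 6.56 and 6.58 with BSA, between 6.72 and 7.13 with Rspo2, between 6.97 and 7.06 with Wnt3a, and between 6.77 and 6.94 with Rspo2/Wnt3a. It rose by 0.35 and 0.45 with either protein alone (SE 0.10, limma adjusted p = 0.0393 and 0.00731), and with both its change of 0.26 had an adjusted p of 0.0596. Cox5a, which binds subunit 4 on the matrix side, rose by 0.42 with Wnt3a (SE 0.10, limma adjusted p = 0.0108) and had changes of 0.32 and 0.13 with Rspo2 and Rspo2/Wnt3a that were not called. A second, dim probe named Cox5a, at a mean signal of 38 units and above background on 5 arrays, gave changes of -1.03, -1.64 and -1.54. Each was called lower (limma adjusted p = 0.038, 0.00277 and 0.00217). This was the widest disagreement between probes of any of the 21 genes with several tested probes. A second Uqcrq probe, at 341 units and above background on all 12 arrays, gave -0.41, -0.61 and -0.76. It was called lower with Wnt3a and with Rspo2/Wnt3a (limma adjusted p = 0.00827 and 0.0019). The probes of a gene had the same sign for 17, 18 and 19 of those 21 genes.

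Cox6a2, the isoform of subunit 6a typical of heart and skeletal muscle, gave the largest change of all members and the only one called at 2-fold or more, which with Wnt3a was so for 0.404% of all probes. Its signal was dim, with a mean of 229 units, but well above background on all 12 arrays. It read -2.86, -2.75 and -2.82 with BSA, -2.48, -1.37 and -2.06 with Rspo2, -1.91, -1.57 and -1.67 with Wnt3a, and -1.70, -1.89 and -1.92 with Rspo2/Wnt3a. All 9 treated arrays were above BSA, and the Rspo2 array on the BSA slide was the lowest of them. The changes were 0.84, 1.09 and 0.97 (SE 0.22), or 1.79-fold, 2.13-fold and 1.96-fold, with limma adjusted p-values of 0.0308, 0.00473 and 0.00563. The other probes of its signal range (64 to 256 units) had a median change of -0.20 with Wnt3a. With slide as a term the changes were 0.33, 0.31 and 0.15 and were not called. Its partner Cox6a1, the form found in most tissues, read 6.59 to 6.66 with BSA, rose by 0.29 with Wnt3a (SE 0.10, limma adjusted p = 0.0448) and had changes of 0.23 and 0.12 in the other groups that were not called.

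Markers of striated muscle were measured beside Cox6a2. Of 4 such genes Ckm was not detected, 3 were tested, and 1, 2 and 2 were up-regulated. Their summed level (log2) lay between 4.19 and 4.39 in the BSA group, 4.40 and 4.87 in the Rspo2 group, 4.86 and 5.22 in the Wnt3a group, and 5.29 and 5.62 in the Rspo2/Wnt3a group. The genes called in it were Actc1 and Tnnt2. Their part in the result was not tested. The label of mammary epithelial cells was matched unevenly by markers: the basal genes Krt14, Acta2 and Trp63 and the mesenchymal gene Vim were above background on all 12 arrays, while Epcam was on 2 and Cdh1 on none. Among these markers Krt14 rose by 1.24 with Rspo2/Wnt3a (SE 0.10), the muscle marker Actc1 by 1.30 (SE 0.17), and the dim Krt8 fell by 1.1 (SE 0.16), each called in limma. Krt5 had an interaction of 1.63 (SE 0.27), and Cd3e, a dim leukocyte marker, fell by 1.01 with Wnt3a (SE 0.33). The lists did not move as 1: of the 4 basal genes 1, 2 and 2 were called higher and 1 lower in each comparison. Of the 5 tested mesenchymal genes 1, 2 and 2 were called lower, and 1 was called higher with Wnt3a. The third tested muscle marker, Myh1, had changes of -0.18, -0.25 and -0.29 that were not called.

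The other isoform pairs of complex IV were less uniform. Cox6b1, the general form, rose by 0.45, 0.60 and 0.53 (SE 0.13), and Cox6b2, the form typical of testis, had changes of -0.08, -0.11 and 0.18 (SE 0.17), not called. Cox7a2 had changes of 0.28, 0.47 and 0.44 (SE 0.13), called with Wnt3a and with Rspo2/Wnt3a, and its muscle form Cox7a1 was not called in any comparison (0.29, 0.16 and -0.13, SE 0.21). Cox8a, the general form of subunit 8, rose by 0.46 with Wnt3a (limma adjusted p = 0.0182), and Ndufa4, once counted with complex I, by 0.47 with Wnt3a and 0.38 with both.

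Cox7c followed the slides. It read 2.19, 2.29, 2.26 and 2.32 on the 4 arrays of slide 1, 1.60, 1.86, 1.84 and 1.97 on slide 2, and 2.65, 2.74, 2.45 and 2.57 on slide 3. The slides did not overlap, and the single Wnt3a array on slide 3 read with the Rspo2/Wnt3a arrays beside it. Its changes of -0.32, -0.09 and 0.35 (SE 0.21) were not called in limma (adjusted p = 0.322, 0.779 and 0.229).

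Complex V had 8, 13 and 12 of its 15 tested genes up-regulated, with medians of 0.39, 0.53 and 0.42. Of the other bright probes 29.9%, 53.9% and 52.6% were called higher. Relative to its range of signal the middle gene stood at 0.12, 0.15 and 0.05. The alpha and beta subunits of the F1 head were not among the up-regulated genes. Atp5b, the catalytic beta subunit, read 6.93, 6.83 and 6.75 with BSA and 6.90 to 7.07 on the treated arrays, with changes of 0.09, 0.17 and 0.14 (SE 0.07, limma adjusted p = 0.427, 0.0965 and 0.149). Its other probes gave 0.24 and 0.38 with Rspo2, 0.12 and 0.21 with Wnt3a, and 0.25 and 0.32 with Rspo2/Wnt3a, not called. Atp5a1, the alpha subunit, had changes of -0.02, 0.02 and 0.12 (SE 0.10). A second probe of Atp5a1 gave 0.25 with Rspo2 and 0.28 with Wnt3a (limma adjusted p = 0.0444 and 0.0187), so the 2 probes of this gene differed.

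Atp5e, the small epsilon subunit of the central stalk, read 5.03, 5.14 and 5.03 with BSA, 5.26, 5.49 and 5.78 with Rspo2, 5.66, 5.76 and 5.78 with Wnt3a, and 5.73, 5.52 and 5.44 with Rspo2/Wnt3a. It rose by 0.44, 0.67 and 0.50 (SE 0.13), with limma adjusted p-values of 0.0382, 0.00352 and 0.0099. Atp5l, subunit g of the membrane part, rose by 0.57, 0.59 and 0.47 (SE 0.16), and Rspo2 replicate 3 was its highest array at 6.42. The c ring, through which protons turn the rotor, is built from copies of 1 mature protein that 3 genes encode, and all 3 rose in all 3 groups. Atp5g1 rose by 0.50, 0.65 and 0.57 (SE 0.14), Atp5g2 by 0.49, 0.58 and 0.51 (SE 0.14), and Atp5g3 by 0.35, 0.44 and 0.35 (SE 0.08), although Atp5g3 was below 0 with Wnt3a and with Rspo2/Wnt3a under cyclic loess.

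**Figure D4:**
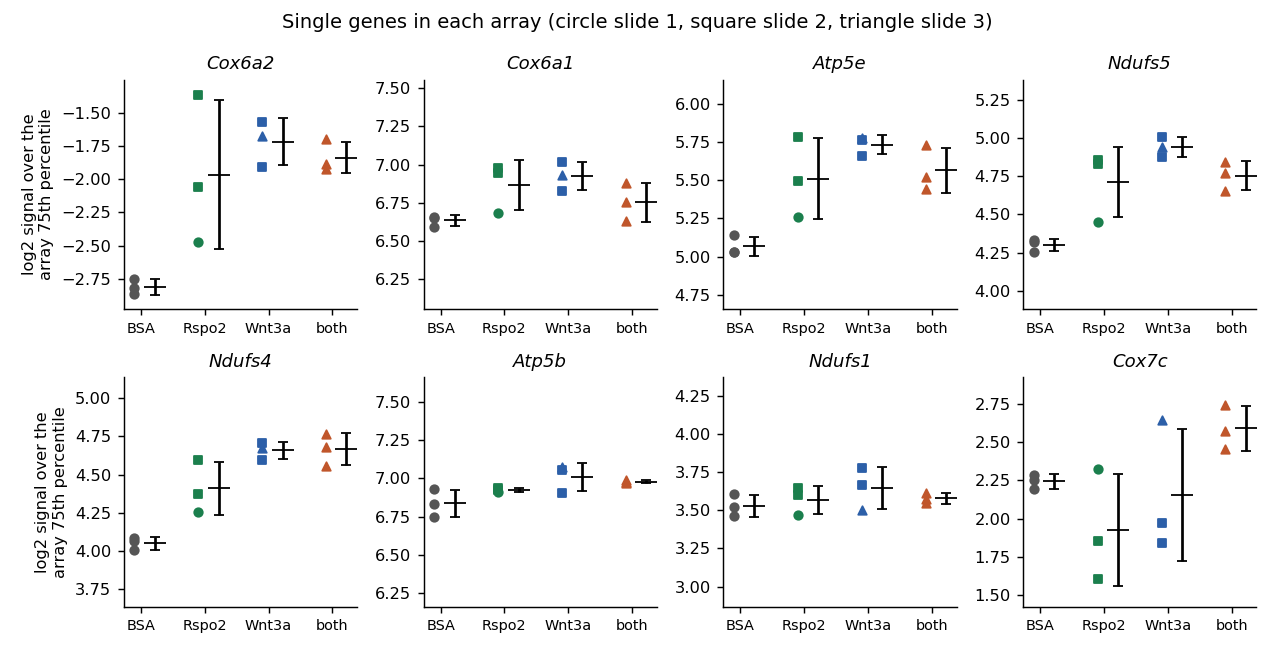
Log2 signal over the array's 75th percentile for 8 genes in each array, by treatment group ("both" is Rspo2/Wnt3a), with the mean and SD of 3 arrays beside the points and the slide as the symbol; each panel has its own vertical range. Cox6a2, Atp5e, Ndufs5 and Ndufs4 read higher on all 9 treated arrays than with BSA, Atp5b and Ndufs1 overlap with BSA, and Cox7c separates by slide.

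In all 30 of the 75 genes were called in each of the 3 comparisons with BSA, 25 in 2, 7 in 1 and 13 in none. The comparisons share the BSA arrays, and such repeated calls were not counted over all probes. In the single comparisons 29.9%, 53.9% and 52.6% of the other bright probes were called higher. Among the 13 were Ndufs1, Ndufa2, Ndufa10, Ndufb2, Uqcrc1, Uqcrfs1, Cox6b2, Cox7a1, Cox7c, Atp5a1, Atp5b and Atp5s. They include large catalytic or core proteins of complexes I, III and V (such as Ndufs1, Uqcrc1, Uqcrfs1, Atp5a1 and Atp5b), a grouping made after their values were seen. By their brightest probes Ndufs1, Uqcrc1, Uqcrfs1, Atp5a1 and Atp5b also lay below the median of the probes of their own signal range in all 3 comparisons, for example Atp5a1 by 0.35 and Uqcrc1 by 0.20 with Wnt3a. Other probes of Uqcrc1, Atp5a1 and Atp5b gave larger changes in some comparisons. Of the 4 family members that are no subunits, Cox4nb, a neighbour of Cox4i1 on the chromosome, rose by 0.42, 0.58 and 0.61 (SE 0.13), Cox7a2l, a supercomplex assembly factor, by 0.39, 0.44 and 0.43 (SE 0.12), and Atp5s had changes of 0.10, 0.14 and 0.02 that were not called.

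Scalings that act over the whole range of signal gave smaller shifts. After quantile normalization the medians were 0.13, 0.18 and 0.13. Limma called 2, 19 and 16 of the 75 genes, where 12.1%, 24.0% and 36.5% of all probes were called in either direction. Cox6a1 was called lower with Rspo2/Wnt3a (-0.26, limma adjusted p = 0.013). After cyclic loess, which removes any trend of change with signal, the medians were 0.10, 0.15 and 0.11 and the calls 2, 17 and 14. Of the calls with Wnt3a and with Rspo2/Wnt3a, 2 and 3 were in the lower direction. Of all probes 9.41%, 22.3% and 35.01% were called under cyclic loess in either direction. Cox6a2 was called in all 3 comparisons under cyclic loess (0.91, 1.23 and 1.08; limma adjusted p = 0.0359, 0.00485 and 0.00474), as was Ndufb5 (0.31, 0.37 and 0.28). On that scale Atp5a1 (-0.36) and Atp5b (-0.28) were called lower with Wnt3a, and Cox6a1 (-0.26), Cox5a (-0.23) and Uqcrc1 (-0.20) lower with Rspo2/Wnt3a (limma adjusted p = 0.0364, 0.0471, 0.0112, 0.0491 and 0.0464). Their direction thus depended on the scaling, since none of the 5 was called lower relative to the 75th percentile.

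**Figure D5:**
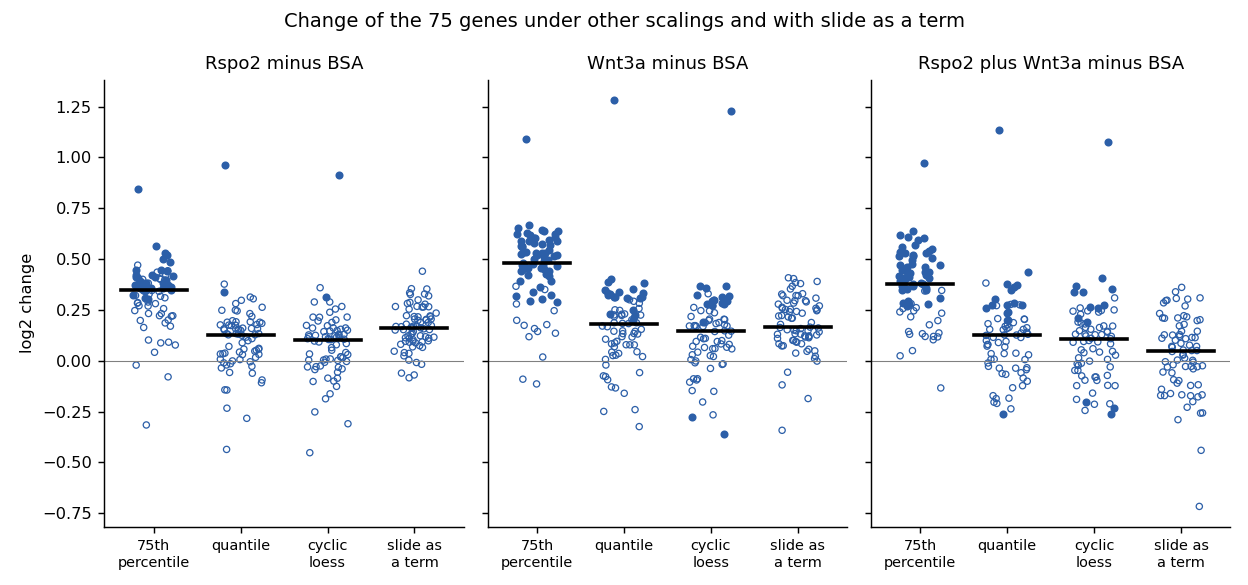
Log2 change of the 75 genes against BSA after scaling to the 75th percentile, quantile normalization, cyclic loess, or with slide as a term, in 1 panel per treatment; filled points were called in limma at an adjusted p under 0.05, open points were not, and black lines are medians. The medians fall from 0.35, 0.48 and 0.38 to between 0.05 and 0.18, and Cox6a2 stays the highest point except with slide as a term.

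No gene was called between Rspo2/Wnt3a and Wnt3a alone. The median difference between Rspo2/Wnt3a and Wnt3a was -0.08, below 0 for 65 of 75 genes, where limma called 4.27% of all probes in either direction. An unadjusted limma p under 0.05 was held by 4 of the 75 genes and by 4196 of the 22751 probes. Complex IV had the lowest median, -0.15, and Cox5a, at 6.39, 6.57 and 6.57 with Wnt3a and 6.29, 6.26 and 6.12 with both, the lowest adjusted p of the 75 genes (-0.29, SE 0.10, adjusted p = 0.161). Wnt3a against Rspo2 gave a median of 0.13 and no call, where 1.47% of all probes were called. There 9 of the 75 genes and 3303 of the 22751 probes had an unadjusted limma p under 0.05.

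For most genes the change with both proteins was smaller than the sum of the changes with each. This interaction term had a median of -0.44 over the 75 genes, below 0 for 72, beside -0.00 over all probes and -0.28 over the other bright probes. Limma called 15 genes lower and none higher, where 5.31% of all probes were called lower and 3.58% higher, and 12.04% of the other bright probes were called lower. The lowest of the 15 were Cox5b (-0.67, SE 0.15, adjusted p = 0.026), Cox5a (-0.60, SE 0.14, adjusted p = 0.0312) and Ndufs5 (-0.60, SE 0.15, adjusted p = 0.0388). Cox5b read 6.18, 6.21 and 6.15 with BSA, 6.34, 6.75 and 6.70 with Rspo2, 6.61, 6.72 and 6.70 with Wnt3a, and 6.51, 6.43 and 6.33 with both. All treated arrays exceeded BSA, and the combination arrays lay below the Wnt3a arrays. The count was 0 without BSA replicate 3, Rspo2 replicate 2 or 3, Wnt3a replicate 2, or Rspo2/Wnt3a replicate 2 or 3. In those fits 2.78% to 3.80% of all probes were called. It was 1 without BSA replicate 1 or 2, 7 without Wnt3a replicate 1 and 37 without Rspo2 replicate 1. There 4.49%, 4.14%, 6.56% and 12.8% of all probes were called. With slide as a term none was called, beside 0.743% of all probes.

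Lists of other mitochondrial genes rose in part, to be read against the 10.9%, 18.3% and 21.9% of all probes, and the 29.9%, 53.9% and 52.6% of bright probes, that were called higher. Of 8 genes of succinate dehydrogenase, cytochrome c and complex III outside the families, 6, 6 and 7 rose; Cycs, cytochrome c itself, rose by 0.36, 0.63 and 0.59 (SE 0.10), and Sdhb, the iron-sulfur subunit of complex II, by 0.54, 0.54 and 0.53 (SE 0.12). Of 78 mitochondrial ribosomal protein genes 43, 65 and 61 rose, and 1 fell with Rspo2/Wnt3a. That gene was Mrps6, which read 4.84, 5.11 and 4.97 with BSA, 5.41, 5.56 and 5.75 with Rspo2, 5.16, 5.32 and 5.35 with Wnt3a, and 4.71, 4.42 and 4.32 with both. Its interaction of -1.40 (SE 0.17, limma adjusted p = 0.00187) was the only one of at least 2-fold in that list. Of 21 protein import genes 6, 16 and 16 rose, of 21 genes of the citric acid cycle list 8, 11 and 11 rose, of 26 assembly factors 7, 13 and 12 rose, and of 9 adenine nucleotide and proton carriers 4, 6 and 4 rose. Single genes fell in the citric acid cycle list with Wnt3a and with Rspo2/Wnt3a, and among the assembly factors with Rspo2/Wnt3a.

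The regulators of mitochondrial biogenesis showed no common direction. Of 18 tested, 1 rose and 1 fell with Rspo2, 2 rose and 3 fell with Wnt3a, and 4 rose and 3 fell with Rspo2/Wnt3a, with medians of 0.06, -0.05 and 0.03. Nrf1, the gene of NRF-1, rose by 0.37, 0.33 and 0.52 (SE 0.08, limma adjusted p = 0.0185, 0.00976 and 0.000564). Gabpa, a gene of GABP, had changes of -0.19, 0.01 and 0.07 (SE 0.10) and was not called. Neither were Tfam (0.13, 0.19 and 0.04, SE 0.15) and Esrra (0.22, 0.29 and 0.12, SE 0.13). Ppargc1a, the coactivator PGC-1alpha, read -3.68, -3.75 and -3.49 with BSA, -3.48, -3.24 and -3.71 with Rspo2, -4.11, -4.15 and -5.05 with Wnt3a, and -5.47, -5.46 and -5.07 with both. It fell by 0.79 with Wnt3a and by 1.69 with Rspo2/Wnt3a (SE 0.23, limma adjusted p = 0.0252 and 0.00035), at a mean signal of 57.9 units. The Wnt3a array on slide 3 read close to the Rspo2/Wnt3a arrays of that slide. Ppard, counted among the 3 that fell with Wnt3a, was above background on 5 arrays, 1 of them with BSA and none with Wnt3a, and no fold is given.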

How the data were processed

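The intensity values were deposited as scanner output of Agilent Feature Extraction 9.5.3.1, in which the authors subtracted background on 1-colour arrays of 60-base probes. The authors also deposited a value table of ratio values, each a signal over its array's upper quartile, and this served as an alternative. Spots with outlier or uneven marks (1327 of 520548 values) were dropped, spots of a probe were averaged, and log2 values were centred on the 75th percentile of their array. Of the probes, 51.3% to 64.2% per array were well above background, and no member was saturated. Probes entered the test if detected in full in 1 group or more. All p-values are from limma 3.58.1 (R 4.3.3) on the 12 arrays together, with Benjamini-Hochberg adjustment over 22751 probes, and they measure the spread between monolayers of 1 cell line.

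The members and gene lists were chosen with earlier results of these data known. Named genes were the 5 largest called rises and falls (none fell) of each comparison with BSA and of the combination against Wnt3a, members called at 2-fold, 8 fixed core or catalytic genes, tissue isoforms with their partners, and genes of the other lists called at 2-fold; others were named after their values were seen. The 13 genes that mitochondrial DNA encodes were not analysed here. Background correction, scaling, filter, test, choice of probe, slide, replicate block and single arrays were varied in 32 alternatives. Figures were made with matplotlib 3.10.9.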

Additional observations from a re-analysis of the deposited data

Results flagged for a closer look

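The response to both proteins differed from the sum of the responses to each for 15 members, each by limma's interaction term with Benjamini-Hochberg adjustment. Of all probes 8.90% were called in this term in either direction. The differences on the log2 scale were -0.67 for Cox5b, -0.60 for Cox5a and -0.54 for Cox4i1, all subunits of complex IV, as is Cox6c at -0.48. In complex I they were -0.60 for Ndufs5, -0.53 for Ndufb5, -0.52 for Ndufv1, Ndufb8 and Ndufa13, -0.50 for Ndufb10 and -0.45 for Ndufb11. In complex V they were -0.58 for Atp5j, -0.51 for Atp5o and -0.44 for Atp5g3, and in complex III -0.57 for Uqcrq. The other bright probes had a median of -0.28 in the same term and 12.04% of them were called lower. The part of brightness in these differences was not tested. No member was called with slide as a term or as a random block, with the replicate block, or under cyclic loess. With 1 array left out at a time the count ran from 0 to 37.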

How the results depend on the processing

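Over all settings run the median change of the 75 genes stayed above 0 in each comparison with BSA, and its lowest values were 0.104, 0.147 and 0.050; the counts of calls were far less stable. In the order Rspo2, Wnt3a, Rspo2/Wnt3a against BSA, interaction, the counts were 2, 19, 16 and 1 and the medians 0.13, 0.18, 0.13 and -0.19 after quantile normalization. Of all probes 12.1%, 24.0%, 36.5% and 6.46% were called there in either direction, and percentages in brackets below are such shares of all probes. Cyclic loess, chosen after seeing the data, gave 2, 17, 14 and 0 (9.41%, 22.3%, 35.01% and 6.36%) and medians of 0.10, 0.15, 0.11 and -0.17. Slide as a term gave 0 in each (0.431%, 0.796%, 2.51% and 0.743%) and medians of 0.16, 0.17, 0.05 and -0.32. Normexp background correction gave 0, 0, 1 and 0 (0.0176%, 0.479%, 4.62% and 0.0132%). Its medians were 0.17 for Rspo2, 0.38 for Wnt3a against Rspo2 and -0.24 for the interaction, beside 0.15, -0.09 and -0.16 over all probes. With Rspo2 the genes thus stood only 0.02 above all probes in that setting. Scaling to the median, which moved the median of all probes by 0.18, 0.33 and 0.26 with Rspo2, Wnt3a and both, gave 55 calls with Rspo2 (21.5%) and 49 for the interaction (17.1%). Its medians were 0.51, 0.81, 0.59, -0.72 and, for Wnt3a against Rspo2, 0.29. The percentile over probes above background on all arrays gave 12 calls with Rspo2 (15.2%), 8 for the interaction (9.01%) and a median of 0.36 with Wnt3a. With no filter on dim probes the counts were 0 with Rspo2 (0.403%), 33 with both (16.6%) and 0 for the interaction (0.726%). The looser flag gave 13 with Rspo2 (8.61%) and 5 for the interaction (4.44%). Slide as a random block gave 8, 33 and 0 for Rspo2, both and the interaction (9.90%, 29.1% and 3.32%). With only the groups compared in the fit 1 gene was called with Rspo2 (5.66%), and with an intensity trend in the prior 23 for the interaction (11.3%). The methods' test with unequal variances and adjusted p-values called 0, 26 and 14 genes in the comparisons with BSA (0.00879%, 6.79% and 14.7%). Unadjusted it called 17 with Rspo2 (24.2%) and 6 for Rspo2/Wnt3a against Wnt3a (10.8%). Without both BSA replicate 1 and Rspo2/Wnt3a replicate 1, also chosen after seeing the data, 0 were called with Rspo2 (1.88%), 11 with both (24.1%) and 0 for the interaction (4.59%).

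Leaving out 1 array at a time gave 0 to 49 calls and medians of 0.26 to 0.44 with Rspo2, 47 to 62 and 0.47 to 0.52 with Wnt3a, 29 to 57 and 0.32 to 0.42 with both, 0 to 1 and -0.15 to -0.04 for both against Wnt3a (the 1 call without Wnt3a replicate 3), 0 to 0 and 0.05 to 0.21 for Wnt3a against Rspo2, and 0 to 37 and -0.52 to -0.35 for the interaction. Replicate numbers did not pair the samples: over 18 pairs with the same number the correlations ran from -0.41 to 0.27 and 4 were over 0.1. With the replicate block 0 genes were called with Rspo2 and 0 for the interaction, where 3.56% and 3.21% of all probes were called. Of the 53 genes called with Rspo2/Wnt3a, 15 turned below 0 when slide was a term (-0.17 to -0.01, Atp5l among them at -0.12), 6 under cyclic loess and 3 under quantile normalization; of the 61 called with Wnt3a 1, 5 and 2 did so, and of the 33 called with Rspo2 none. Directions also turned for Cox5a with Wnt3a (-0.61) and in the interaction (0.27) when its probes were averaged, and for Cox5a with Wnt3a under cyclic loess (-0.0012). The unequal-variance test and the fit of only the groups compared were not run for the interaction. Causes were not tested. The number of arrays limits the precision, and dim probes such as Cox6a2 lie closer to background than the rest.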

Other observations

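With the members taken by current gene symbol, which adds genes that the array lists under older names, 83 genes were tested, 37, 69 and 62 were called with Rspo2, Wnt3a and Rspo2/Wnt3a, and the medians were 0.36, 0.49 and 0.40. Of all probes 16.8%, 31.5% and 39.2% were called in either direction. Cyc1, the cytochrome c1 subunit of complex III, is also outside the families by name; it had changes of 0.19, 0.22 and 0.22 (SE 0.14), not called in limma, beside the large rise of Uqcr10 in the same complex.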
